A study of Mus musculus with 172 samples.

Results

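The cells described here are all those of the E3.5 (mid) blastocyst inner cell mass (ICM): 29 cells that lack OCT4 (MUT) from 4 embryos, and 58 control cells from 7 embryos, of which 42 cells from 5 embryos were wild type (WT) and 16 cells from 2 embryos were heterozygous (HET). They make up 87 of the 172 cells of the series and were chosen by stage and genotype alone, not by any measured value. Embryos came from natural inter se matings of Oct4+/- mice on a mixed background, with the day of the copulation plug counted as E0.5, so that MUT embryos carry 2 null alleles of Pou5f1, the gene that encodes OCT4, HET embryos 1 and WT embryos none. The trophectoderm (TE) was lysed by immunosurgery and used for genotyping, the ICM was dissociated, and each cell was made into a Smart-seq2 library, a plate-based method that reads whole transcripts without molecular identifiers. The null allele is constitutive, so neither the ICM nor the lysed TE of a MUT embryo could make its own OCT4. The question was which genes, beyond Pou5f1 itself and the lineage markers, differ between ICM cells with and without OCT4.

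OCT4 is a POU-domain transcription factor that binds an octamer motif, often together with SOX2, and is required for a pluripotent ICM. During blastocyst formation outer cells become TE, a polarised epithelium that pumps fluid into the cavity and later forms placenta, while inner cells become the ICM, which then divides into epiblast and primitive endoderm (PrE). In embryos without OCT4 a blastocyst with inner cells forms, but these cells do not go on to make epiblast.

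The counts of an embryo's cells were summed, because cells of 1 embryo share it and are not replicates of a genotype. MUT embryos gave 8117581 to 14148069 counts from 4 to 10 cells, and WT/HET embryos 8539537 to 17453036 from 6 to 10 cells. Levels are given in CPM, the counts of a gene divided by the size of its library after scaling by the trimmed mean of M values. CPM is not divided by gene length, so levels are compared between embryos and never between genes. In such sums fewer cells that express a gene and less RNA per cell cannot be told apart. The 4 MUT values of a gene are given in the order of embryos 10, 12, 17 and 19, by the study's numbers. Pou5f1 was at 5.75, 3.39, 2.61 and 4.70 CPM in the MUT embryos and at 186 to 400 CPM in WT/HET embryos, so label and level matched for MUT against control in 11 of 11 embryos. The levels did not separate WT from HET, since WT embryo 9 (196 CPM) lay between HET embryos 15 (186 CPM) and 16 (213 CPM). Of the marker genes, Gata6 was present in all 87 cells, whereas Foxa2 had no count in any cell. The summed level of 17 TE markers was 1759 to 2893 CPM in MUT embryos and 425 to 1637 CPM in WT/HET embryos, with 5 of 13 tested members called higher. The called members were Gata3, Hand1, Fabp3, Cldn4 and Dab2, so the sum does not show the list raised as a whole. Among the uncalled, Eomes, Krt18, Tead4 and Id2 had higher means in MUT, and Tfap2c, Ly6a and Cdx2 lower ones. Krt8 averaged 187 CPM in MUT and 186 CPM in controls. Of the 17 markers Gata2 had no count in MUT, and Cdx2, Elf5, Krt7 and Plac1 had means of 1.75, 0.326, 0.224 and 0.491 CPM there. The summed level of 11 PrE markers was 364 to 589 CPM in MUT and 94.6 to 296 CPM in WT/HET embryos, with 2 of 7 tested members called higher. These were Col4a1 and Dab2, which is also on the TE list, and the other 9 PrE markers summed to 38.6 to 156 CPM in MUT and 36.5 to 269 CPM in WT/HET embryos. The sum of 9 ICM and epiblast markers was 569 to 1147 CPM in MUT and 1055 to 1799 CPM in WT/HET embryos, with 5 of 9 called lower. The part of these differences in the results below was not tested. Y-linked genes were near 0 in 2 of 4 MUT embryos (10 and 17) and in 2 of 7 control embryos (WT 13 and 18), so both arms held embryos of both sexes.

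A gene was called at an adjusted p under 0.05 in edgeR's quasi-likelihood test over embryos. Of 12075 genes tested, 386 (3.2%) were called higher in MUT, 360 (2.98%) lower and 746 (6.18%) in either direction, and the median log2 fold change over all of them was -0.02. The 4 MUT embryos and the 7 control embryos did not overlap for 915 genes (7.58%), and 580 of the called genes were among these. Decreases were the larger changes. The median log2 fold change was 1.36 for genes called higher and -2.43 for genes called lower, and 101 of the former and 199 of the latter passed 4-fold. Counts were 0 in all MUT embryos for 73 of the genes called lower, while 2 of the genes called higher had counts of 0 in all controls. These 2 numbers are not on an equal footing, since 0 throughout is easier to reach in 29 cells of 4 MUT embryos than in 58 cells of 7 controls. Genes detected per embryo were also fewer in MUT (median 13772 against 15103). The fitted decreases of genes at 0 in MUT rest on the prior count. Called genes were mostly protein-coding (705 of 746), and of 403 X-linked genes tested 15 were called higher and 8 lower. With read pairs that fell outside genes added to the library size, 209 genes were called higher and 423 lower, at a median of -0.24. A limma fit with every cell weighted equally, which changes the weighting and the test together, gave 425 and 928 at a median of -0.23. The near balance of the directions was thus not kept in either.

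**Figure D1:**
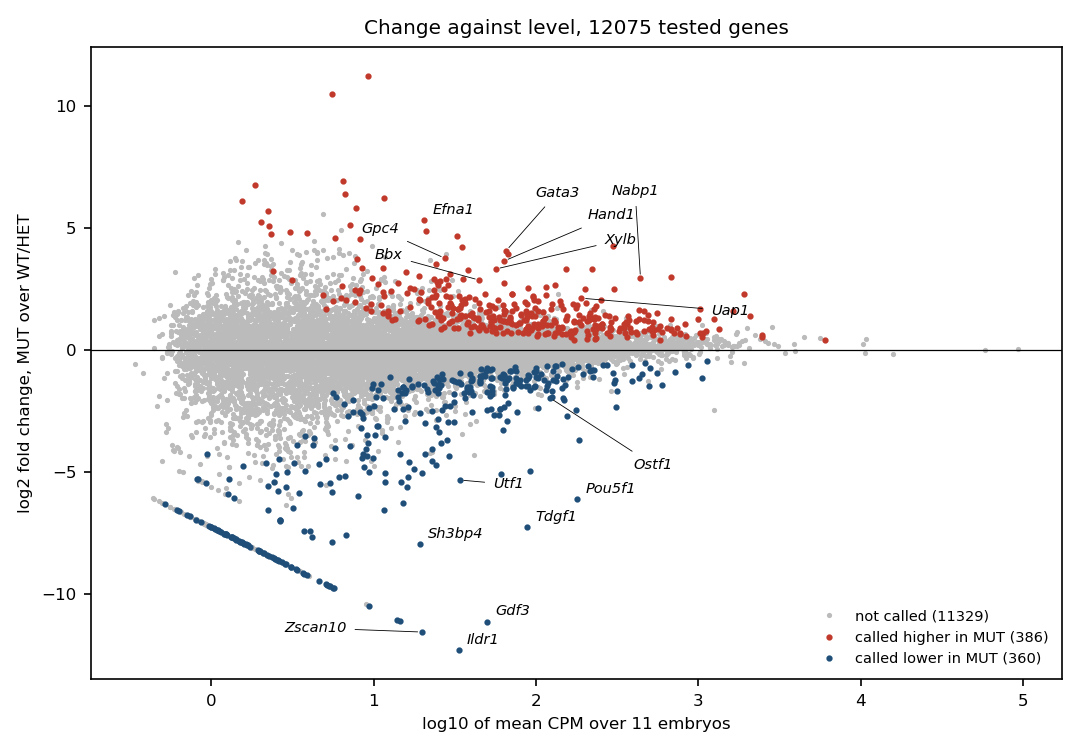
Log2 fold change of MUT over WT/HET (vertical axis) against the log10 of the mean CPM over 11 embryos (horizontal axis) for 12075 tested genes, with 386 genes called higher in red, 360 called lower in blue and all others in grey. The straight lower edge is made of genes with no count in MUT, for which the fitted value rests on the prior count, and the genes called lower reach further from 0 than those called higher.

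The tight junction gene Ildr1 (ENSMUSG00000022900, chromosome 16, 36693978 to 36726804, GRCm38) had no count in any MUT cell. It encodes an immunoglobulin-like receptor that sits at tricellular junctions, the points where 3 epithelial cells meet. Ildr1 was at 20.1 to 75.7 CPM in WT/HET embryos (median 55.2 CPM), with counts in 53 of 58 cells. Its 0 of 29 MUT cells allow a share of cells with a count of up to 10.3% by a floor of 3 cells, or 11.9% as the upper limit of a 95% exact binomial interval. Both limits treat the cells as independent, which cells of the same embryo are not, so they are too narrow for a statement about embryos. Against a floor of 3 counts over the 4 embryos, Ildr1 was at least 716-fold lower in MUT (adjusted p = 0.000297). Of 27 tight and tricellular junction genes tested, 2 were called higher and 1 lower, with a median log2 fold change of -0.18. That is 11.1% called, against 6.18% of all genes. Cldn4, a claudin of epithelial tight junctions and one of the TE markers, rose from 26.2 to 105 CPM (median 57.9) in controls to 256, 114, 226 and 168 CPM in MUT embryos. The groups did not overlap for Cldn4 (log2 fold change 1.57 ± 0.34 SE, adjusted p = 0.0174), but its adjusted p was 0.057 without MUT embryo 10 and 0.051 without MUT embryo 17. The junction genes Ocln (38.6 CPM in MUT and 38.8 CPM in controls on average) and Tjp1 (41.7 and 24.4 CPM) were not called.

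Components of the cell cortex and of cell contacts were also among the called genes. Ezr (ENSMUSG00000052397, chromosome 17, 6738041 to 6782784) encodes ezrin, which ties the plasma membrane to actin and marks the apical side of outer cells. Ezr was at 0, 7.90, 0.815 and 1.88 CPM in MUT embryos and at 51.9 to 130 CPM (median 98.2) in controls. Every MUT embryo lay below every control (log2 fold change -5.08 ± 0.80, adjusted p = 0.00399), and counts for Ezr were found in 7 of 29 MUT and 56 of 58 control cells. Among 44 actin cortex and ERM (ezrin, radixin, moesin) genes, 5 were called higher and 2 lower (median -0.08). That is 15.9% called, against 6.18% of all genes. The count of increases was 3 without MUT embryo 17, MUT embryo 19 or WT embryo 14. The actin-binding genes that rose included Cnn3, a calponin (log2 fold change 1.15 ± 0.21), Cdc42ep1, an effector of the GTPase CDC42 (1.95 ± 0.37), and Actn4, an actinin (0.93 ± 0.18), all without overlap between the groups. Cdc42ep1 was at 96.6, 77.7, 80.4 and 82.7 CPM in MUT embryos against 7.15 to 41.9 CPM in controls. Actb, which encodes cytoplasmic actin, averaged 2113 CPM in MUT and 2004 CPM in controls and was not called.

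Of 32 adherens junction and polarity genes, 1 was called higher and 2 lower (median -0.20), a share of 9.38% against 6.18% of all genes. Jup, which encodes plakoglobin, a catenin of desmosomes and adherens junctions, was at 14.7, 24.97, 29.7 and 6.85 CPM in MUT embryos and at 75.0 to 149 CPM in controls (log2 fold change -2.52 ± 0.39, adjusted p = 0.00393). Jup was also the 1 call, a decrease, among 11 keratin and desmosome genes (median -0.36, 9.09% called). Pecam1, an adhesion molecule of the ICM and of endothelium, fell by 1.46 ± 0.28 on the log2 scale (adjusted p = 0.0103). Cdh1, which encodes E-cadherin, averaged 154 CPM in MUT and 182 CPM in controls, and the keratin Krt8 187 and 186 CPM, and neither was called. Fn1, the matrix protein fibronectin, fell from 28.4 to 81.5 CPM in controls to 2.80, 0, 0.652 and 5.77 CPM in MUT embryos (log2 fold change -4.32 ± 0.88, adjusted p = 0.0130).

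Gpc4 (ENSMUSG00000031119, chromosome X, 52053021 to 52165252), a glypican, is a heparan sulphate proteoglycan anchored to the cell surface, where glypicans bind growth factors such as FGF and WNT. Gpc4 was at 108, 51.9, 61.0 and 47.4 CPM in MUT embryos and at 3.29 to 9.33 CPM (median 3.89) in controls. The lowest MUT embryo was above the highest control (log2 fold change 3.77 ± 0.35, adjusted p = 0.000266), and Gpc4 was detected in 25 of 29 MUT and 22 of 58 control cells. Since Gpc4 is X-linked, its level can be set beside Xist, the RNA of the inactive X, which summed to 637 and 465.7 CPM in MUT embryos 10 and 17 and to 0.282 and 0.269 CPM in MUT embryos 12 and 19. Gpc4 was above every control in both kinds of MUT embryo, and higher in embryos 10 and 17 than in embryos 12 and 19. The part of embryo sex in these levels was not tested. Of 29 proteoglycan and glycosaminoglycan genes tested, 2 were called higher and 1 lower (median -0.50, 10.3% called against 6.18% of all genes). The decrease was Chpf, a chondroitin polymerising factor, whose counts were in 1 of 29 MUT and 48 of 58 control cells (0.265 ± 0.530 and 23.6 ± 7.51 CPM, mean ± SD, log2 fold change -6.28 ± 1.00, adjusted p = 0.00412). The surface proteoglycan Sdc4 (206 CPM in MUT and 202 CPM in controls) and the heparan sulphate polymerase Ext2 (21.1 and 29.8 CPM) were not called.

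The sugar-handling genes with the smallest p were Uap1 and Xylb. Uap1 (ENSMUSG00000026670, chromosome 1, 170141938 to 170174957) encodes the enzyme that makes UDP-N-acetylglucosamine, the end product of the hexosamine pathway and a donor for glycan chains. Uap1 was at 559, 267, 335 and 340 CPM in MUT embryos and at 57.0 to 106 CPM (median 93.6) in controls, without overlap (log2 fold change 2.14 ± 0.23, adjusted p = 0.000514). Xylb (ENSMUSG00000035769, chromosome 9, 119357381 to 119393797) encodes xylulokinase, which feeds xylulose into the pentose phosphate pathway. Xylb was at 175, 143, 115 and 99.5 CPM in MUT embryos and at 7.08 to 25.4 CPM (median 8.83) in controls, again without overlap (log2 fold change 3.34 ± 0.36, adjusted p = 0.000514), and it was detected in 29 of 29 MUT and 40 of 58 control cells. In the list of 42 hexosamine, nucleotide sugar and xylulose genes, all of them tested, 3 were called higher and none lower, and the median was -0.18, below 0. That is 7.14% called, near the 6.18% of all genes. Gfpt1, the enzyme that commits fructose 6-phosphate to hexosamine synthesis (19.7 CPM in MUT and 16.6 CPM in controls), and Ogt, which transfers N-acetylglucosamine to proteins (138 and 100.1 CPM), were not called.

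**Figure D2:**
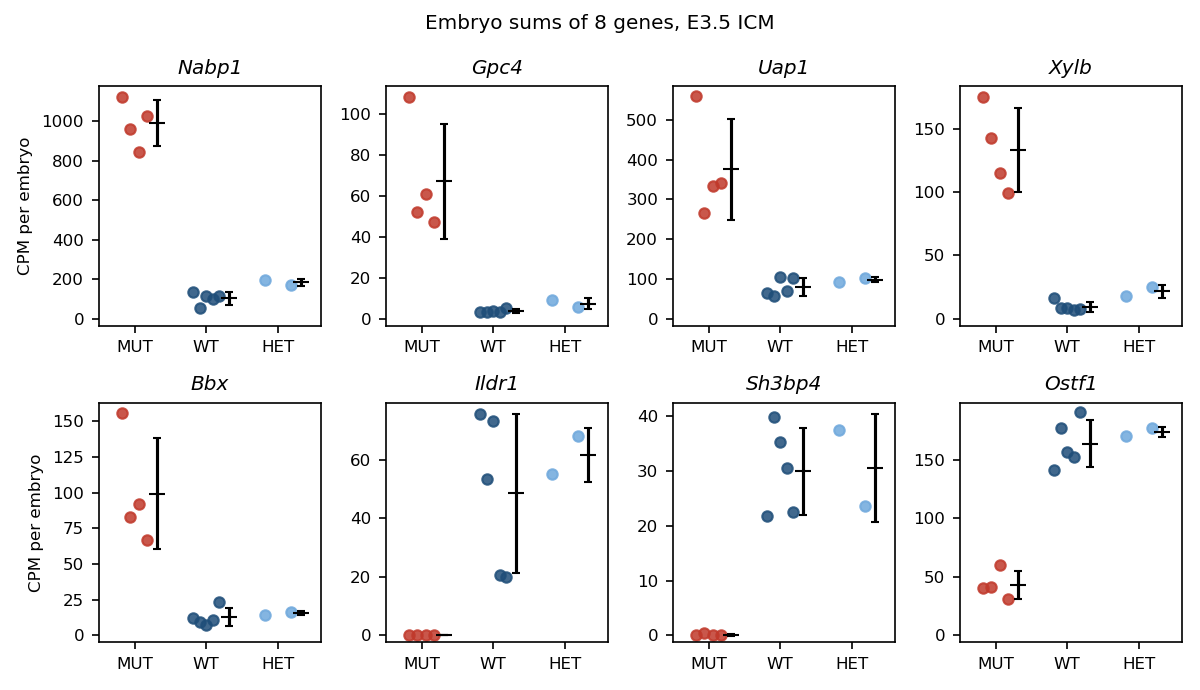
CPM per embryo (vertical axes, each starting at 0) of 8 genes in 4 MUT, 5 WT and 2 HET embryos, each point 1 embryo, with the mean and SD beside the points. Nabp1, Gpc4, Uap1, Xylb and Bbx are higher in every MUT embryo than in any control, and Ildr1, Sh3bp4 and Ostf1 lower.

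Genes of membrane traffic and of lysosomes were called in both directions. Sh3bp4 (ENSMUSG00000036206, chromosome 1, 89070415 to 89155068) encodes an adaptor of clathrin-mediated endocytosis that also restrains amino acid signalling to mTORC1. Sh3bp4 had 5 counts in MUT, all in 1 cell of embryo 12 (0.353 CPM), and was at 21.7 to 39.9 CPM (median 30.6) in controls. The log2 fold change was -7.94 ± 0.78 (adjusted p = 0.000277), with Sh3bp4 counts in 51 of 58 control cells. Ostf1 (ENSMUSG00000024725, chromosome 19, 18516137 to 18631823) encodes a small SH3 and ankyrin-repeat adaptor. Ostf1 was at 40.4, 41.6, 59.9 and 30.7 CPM in MUT embryos and at 142 to 191 CPM (median 171) in controls. It fell by 1.95 ± 0.19 on the log2 scale (adjusted p = 0.000297), and every one of the 87 cells had counts for it. Unlike Sh3bp4, Ostf1 was thus present in all MUT cells at a lower level. Of 48 endocytic and SH3 adaptor genes tested, 1 was called higher and 4 lower (median -0.22, 10.4% called against 6.18% of all genes). The count of decreases was 2 without WT embryo 13 or HET embryo 15. The increase was Dab2, a clathrin adaptor of TE and PrE and a member of both of those marker lists, at 424, 183, 281 and 248 CPM in MUT embryos against 13.1 to 90.5 CPM in controls (log2 fold change 2.69 ± 0.47, adjusted p = 0.00661). The clathrin heavy chain gene Cltc was not called (362 CPM in MUT and 241 CPM in controls), with 676 CPM in MUT embryo 19 and 230 to 272 CPM in the other 3.

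Of 67 lysosome and autophagy genes tested, 13 were called higher and 1, Sh3bp4, lower, with a median log2 fold change of 0.25. That is 20.9% called, against 6.18% of all genes. Ctsz, a lysosomal protease, was at 311, 225, 334 and 182 CPM in MUT embryos and at 52.5 to 121 CPM in controls, without overlap (log2 fold change 1.71 ± 0.22, adjusted p = 0.00185). Npc2, which moves cholesterol out of lysosomes, rose by 1.07 ± 0.20 on the log2 scale, and Cd63, a tetraspanin of late endosomes, by 0.79 ± 0.13. The lysosomal membrane gene Lamp1 (1097 CPM in MUT and 998 CPM in controls) and Tfeb, the transcription factor of lysosomal genes (14.8 and 10.3 CPM), were not called, nor was Psap (2245 and 1406 CPM, adjusted p = 0.0914). The counts of calls were 6 higher and 1 lower with read pairs that fell outside genes added to the library size, 5 and 1 with HET embryos left out, 8 higher without MUT embryo 10 and 7 higher without MUT embryo 17. Gpr137b, which encodes a lysosomal membrane protein and lies outside that list, was at 555, 220, 421 and 232 CPM in MUT embryos and at 8.65 to 54.5 CPM in controls (log2 fold change 3.35 ± 0.42, adjusted p = 0.00158). It has a near-identical pseudogene copy, so reads may be split between the 2 loci.

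In the nucleus, Nabp1 had the smallest adjusted p among increases, together with Gpc4. Nabp1 (ENSMUSG00000026107, chromosome 1, 51465862 to 51478425) encodes a single-strand DNA-binding protein of the SOSS complex, which acts at DNA breaks. Nabp1 was at 1123, 959, 845 and 1024 CPM in MUT embryos and at 52.9 to 197 CPM (median 118) in controls, without overlap (log2 fold change 2.95 ± 0.27, adjusted p = 0.000266). Detection of Nabp1 differed little, at 29 of 29 MUT and 55 of 58 control cells, while the levels differed. The paralogue Nabp2 (6.87 CPM in MUT and 8.0 CPM in controls) and the other SOSS subunits Ints3 (96.7 and 67.6 CPM) and Inip (54.5 and 35.7 CPM) were not called. Of 54 single-strand DNA binding and repair genes, all tested, 1 was called higher and 1 lower (median -0.20), a share of 3.70% called against 6.18% of all genes. The decrease was Rpa1, the large subunit of the main single-strand DNA-binding complex of replication, which fell by 1.08 ± 0.20 on the log2 scale (adjusted p = 0.00865).

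Bbx (ENSMUSG00000022641, chromosome 16, 50191844 to 50432390) encodes an HMG-box transcription factor. Bbx was at 156, 82.8, 92.2 and 66.6 CPM in MUT embryos and at 7.46 to 23.4 CPM (median 12.3) in controls (log2 fold change 2.88 ± 0.32, adjusted p = 0.000556), and the groups did not overlap. Detection of Bbx went from 41 of 58 control cells to 29 of 29 MUT cells. Of 23 HMG-box genes tested, Bbx was the 1 called higher, and Hmgxb4, another HMG-box gene, the 1 called lower (log2 fold change -1.47 ± 0.23, adjusted p = 0.00397). The share called was 8.70% against 6.18% of all genes.

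Of 41 DNA methylation and chromatin silencing genes, all tested, none was called higher and 6 were called lower (median -0.34). The share called was 14.6%, against 6.18% of all genes. Uhrf1 (ENSMUSG00000001228, chromosome 17, 56303321 to 56323486) brings the maintenance methyltransferase to newly replicated DNA. Uhrf1 was at 0, 11.99, 1.47 and 4.16 CPM in MUT embryos and at 83.2 to 205 CPM in controls (log2 fold change -4.95 ± 0.80, adjusted p = 0.00483), with counts in 12 of 29 MUT and 57 of 58 control cells. Zfp57, a zinc finger protein that keeps methylation at imprinted loci, was at 0.561, 1.199, 1.71 and 2.55 CPM in MUT embryos against 11.8 to 77.6 CPM in controls (log2 fold change -4.53 ± 0.69, adjusted p = 0.00337). Tet1, which oxidises 5-methylcytosine, fell by 2.02 ± 0.32 on the log2 scale and Hdac2, a histone deacetylase, by 0.98 ± 0.17. None of these decreases had an overlap between the groups, while Trim28, the corepressor that ZFP57 recruits, overlapped (228 CPM in MUT and 289 CPM in controls, not called).

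**Figure D3:**
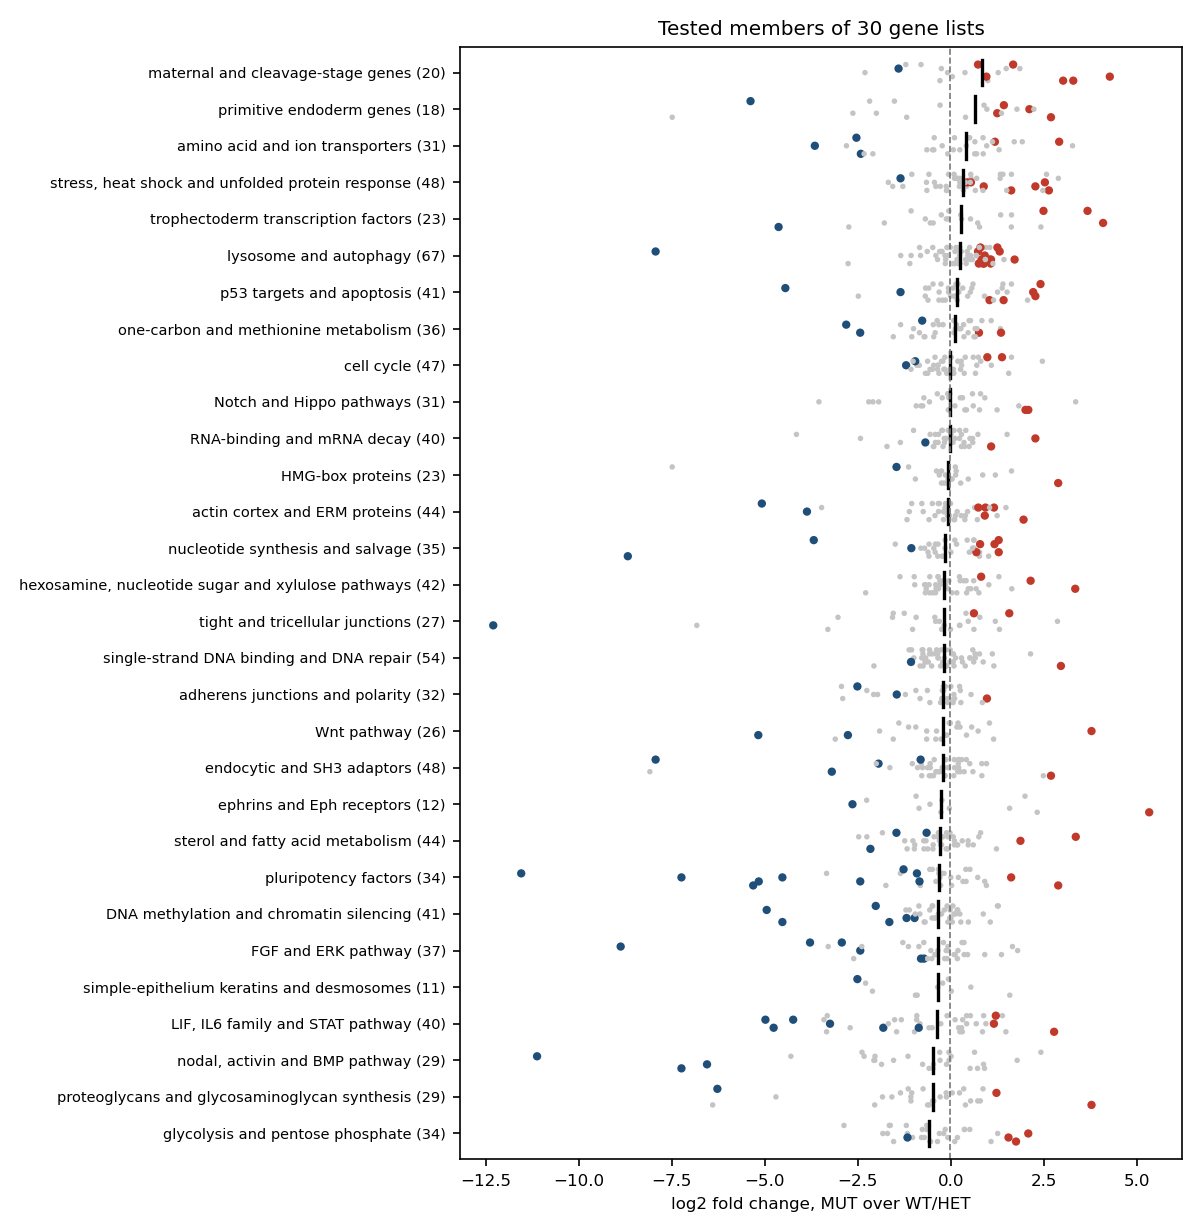
Log2 fold change of MUT over WT/HET (horizontal axis) for the tested members of 30 gene lists (a line each, number tested in parentheses), with called members in red (higher) or blue (lower), others in grey and the median as a black bar. Called members lie on both sides in most lists. The nodal, FGF, keratin and DNA methylation lists have called members on the lower side only. The hexosamine list and the Notch and Hippo list have them on the higher side only.

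Secreted signals and their receptors gave calls in several pathways. Of 29 nodal, activin and BMP genes tested, 3 (10.3%, against 6.18% of all genes) were called, all lower (median -0.48). These were Gdf3, a TGF-beta family ligand, Tdgf1, the co-receptor Cripto that nodal and GDF3 need, and Foxh1, a partner of SMAD2 in the nucleus. Gdf3 (ENSMUSG00000030117, chromosome 6, 122605403 to 122610087) had 1 count in MUT, in embryo 10 (0.140 CPM), against 60.9 to 123 CPM in controls (adjusted p = 7.2e-07). Foxh1 had counts in 1 of 29 MUT and 53 of 58 control cells, at 0.163 ± 0.326 and 18.1 ± 6.69 CPM (log2 fold change -6.56 ± 0.99, adjusted p = 0.00329). Tdgf1 was at 0.140, 1.34, 1.71 and 0 CPM in MUT embryos and at 28 to 330 CPM in controls (log2 fold change -7.24 ± 0.97, adjusted p = 0.00192). Smad2 itself averaged 54.1 CPM in MUT and 54.0 CPM in controls (log2 fold change 0.00 ± 0.16, adjusted p = 0.998).

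In the FGF and ERK list 6 of 37 tested genes (16.2%, against 6.18% of all genes) were called, all lower (median -0.35). Without MUT embryo 10 or MUT embryo 17, 2 genes of this list were called lower, and with HET embryos left out 3 lower and 1 higher. Fgf4, the ligand by which ICM cells signal to TE and PrE, was at 0, 8.18, 2.28 and 0.403 CPM in MUT embryos and at 17.03 to 80.0 CPM in controls (log2 fold change -3.79 ± 0.90, adjusted p = 0.0270). The Fgf4 groups did not overlap, but its adjusted p was 0.071 without MUT embryo 17 and 0.055 without WT embryo 14. The receptor gene Fgfr1 was not called (68.2 CPM in MUT and 97.8 CPM in controls).

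Of 40 genes of the LIF, IL6 family and STAT list, 3 were called higher and 6 lower (median -0.39). That is 22.5% called, against 6.18% of all genes. Socs2, a feedback inhibitor of cytokine receptors, was at 13.6, 17.4, 4.56 and 3.22 CPM in MUT embryos and at 41.97 to 137 CPM in controls (log2 fold change -3.25 ± 0.51, adjusted p = 0.00397). Akt2, a kinase downstream of PI3K, fell by 1.82 ± 0.27 on the log2 scale. By contrast, the kinase genes Pim1 and Pim3, both known cytokine-response genes, rose. Pim1 was at 154, 175, 151 and 76.7 CPM in MUT embryos against 6.36 to 47.5 CPM in controls (log2 fold change 2.77 ± 0.55, adjusted p = 0.0114), and Pim3 rose by 1.15 ± 0.18. Stat3 was not called (115 CPM in MUT and 93.8 CPM in controls).

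Ephrins and their receptors signal between touching cells. Efna1 (ENSMUSG00000027954, chromosome 3, 89271733 to 89281142), an A-type ephrin ligand, was at 86.4, 37.5, 49.3 and 41.5 CPM in MUT embryos and at 0 to 3.57 CPM (median 1.07) in controls. It was the named increase of greatest fold (log2 fold change 5.32 ± 0.74, adjusted p = 0.00241) and was detected in 26 of 29 MUT and 13 of 58 control cells. Epha4 (ENSMUSG00000026235, chromosome 1, 77367185 to 77515088), a receptor for A-type ephrins, went the other way, from 58.3 CPM and more in controls (median 81.3) to 8.27, 18.3, 17.8 and 6.31 CPM in MUT embryos (log2 fold change -2.65 ± 0.32, adjusted p = 0.00129). The groups overlapped for neither gene, which was a condition by which genes of the largest changes were picked. These were the 2 calls among 12 ephrin and Eph receptor genes tested (median -0.26, 16.7% called against 6.18% of all genes).

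Of 26 Wnt pathway genes tested, Gpc4 was the 1 called higher and 2 were called lower (median -0.21). That is 11.5% called, against 6.18% of all genes. Sfrp1, a secreted Wnt antagonist, had counts in 3 of 29 MUT and 53 of 58 control cells (log2 fold change -5.18 ± 1.12, adjusted p = 0.0169). Lgr4, a receptor for R-spondins that strengthens Wnt signals, was at 1.26, 3.74, 1.55 and 0.671 CPM in MUT embryos and at 9.43 to 17.3 CPM in controls (log2 fold change -2.77 ± 0.52, adjusted p = 0.00877), and its adjusted p was 0.051 with shallow cells left out. The beta-catenin gene Ctnnb1 averaged 227 CPM in MUT and 235 CPM in controls. In the Notch and Hippo list 2 of 31 tested genes were called, both higher, and Yap1, the Hippo effector, was not (28.5 CPM in MUT and 21.5 CPM in controls). The share called was 6.45%, close to the 6.18% of all genes.

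Among 34 pluripotency genes tested, 9 were called lower and 2, Bbx and Fbxo15, higher (median -0.33, 32.35% called against 6.18% of all genes). Zscan10, a zinc finger gene of embryonic stem cells, had no count in 29 MUT cells and was at 6.77 to 65.0 CPM (median 32.5) in controls, at least 426-fold lower over the floor of 3 counts (adjusted p = 0.00255), with counts in 36 of 58 control cells. Utf1, a chromatin-associated gene of pluripotent cells, was at 0.140, 2.89, 1.79 and 0 CPM in MUT embryos against 20.1 to 113 CPM in controls (log2 fold change -5.32 ± 0.86, adjusted p = 0.00477). Fbxo15, an F-box gene used as a reporter of pluripotent cells, rose to 5100, 1903, 2127 and 2332 CPM from 615 to 1214 CPM in controls (log2 fold change 1.61 ± 0.26, adjusted p = 0.00511). Sox2, the partner of OCT4, averaged 22.5 CPM in MUT and 25.7 CPM in controls and was not called. The zinc finger gene Zfp42 (REX1) had a smaller decrease, at 134, 165, 159 and 110 CPM in MUT embryos against 225 to 276 CPM in controls (log2 fold change -0.85 ± 0.14, adjusted p = 0.00549), without overlap.

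Promoters were searched for the 8 letters ATGCAAAT, the octamer to which POU factors bind, and for its other strand ATTTGCAT, in the 250 bases before the RefSeq start of each gene (GRCm38.p6). Of all 27025 promoters 490 (1.81%) held it, of 8846 for tested genes 135 (1.53%), of 288 for genes called higher 3 (1.04%) and of 274 for genes called lower 11 (4.01%), given as a description without a test. None of the 9 promoters found for the 13 genes given with the comparison held these letters. The 2 printed belong to genes that fell, Zfp42 (chr8:43307010-43307259, minus strand) and Lgr4 (chr2:109917397-109917646, plus strand), and were picked after their values were seen to let the motif be read in place, with the octamer in capitals. Its bases lay 186 to 179 bases before the start of Zfp42 and 49 to 42 bases before that of Lgr4.
Zfp42: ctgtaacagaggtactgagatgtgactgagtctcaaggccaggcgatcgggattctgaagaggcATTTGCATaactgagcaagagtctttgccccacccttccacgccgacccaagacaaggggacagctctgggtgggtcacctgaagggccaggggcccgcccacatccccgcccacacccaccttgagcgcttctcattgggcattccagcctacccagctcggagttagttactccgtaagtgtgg
Lgr4: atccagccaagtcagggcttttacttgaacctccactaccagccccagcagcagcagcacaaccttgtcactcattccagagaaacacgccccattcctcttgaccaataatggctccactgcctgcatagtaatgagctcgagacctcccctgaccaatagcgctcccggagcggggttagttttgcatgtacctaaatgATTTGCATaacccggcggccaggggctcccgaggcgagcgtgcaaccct

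Lineage transcription factors gave calls in both directions. Of 23 TE factors tested, 3 were called higher and 1 lower (median 0.26, 17.4% called against 6.18% of all genes). The count of increases was 5 without MUT embryo 19. Gata3 and Hand1, which act in TE and its descendants, were at 143 to 179 CPM and 116 to 191 CPM in MUT embryos against 0.463 to 17.7 CPM and 1.57 to 26.2 CPM in controls (log2 fold changes 4.08 ± 0.73 and 3.67 ± 0.62). Ovol1, a zinc finger factor of epithelial and trophoblast cells, was at 15.6, 23.4, 16.5 and 13.4 CPM in MUT embryos and at 1.29 to 5.33 CPM in controls (log2 fold change 2.48 ± 0.44, adjusted p = 0.00694). Arid3a, which in the mouse embryo acts towards TE, moved the other way, with counts in 2 of 29 MUT and 35 of 58 control cells (log2 fold change -4.63 ± 0.97, adjusted p = 0.0141). Tfap2c, a factor of early TE and ICM, was not called (66.8 CPM in MUT and 98.3 CPM in controls).

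Of 18 PrE genes tested, 4 were called higher and 1 lower (median 0.64, 27.8% called against 6.18% of all genes). The basement membrane collagens Col4a1 and Col4a2, a gene pair read from a shared promoter region, rose together. Col4a1 was at 69.3, 71.2, 67.8 and 77.7 CPM in MUT embryos against 6.94 to 24.5 CPM in controls (log2 fold change 2.10 ± 0.30, adjusted p = 0.00268), and Col4a2 rose by 1.42 ± 0.24. Hnf4a, a nuclear receptor of visceral endoderm, fell to counts in 1 of 29 MUT cells from 45 of 58 control cells (log2 fold change -5.39 ± 1.15, adjusted p = 0.0162). Gata6, the early PrE factor, averaged 86.5 CPM in MUT and 106 CPM in controls and was not called. Sox17, a later one, had no MUT count and was detected in 7 of 58 control cells (adjusted p = 0.120 in edgeR and 0.034 in DESeq2). Of the 4 genes of this list that rose, Col4a1 and Col4a2 thus encode matrix proteins and Dab2, which is also a TE marker, an adaptor.

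**Figure D4:**
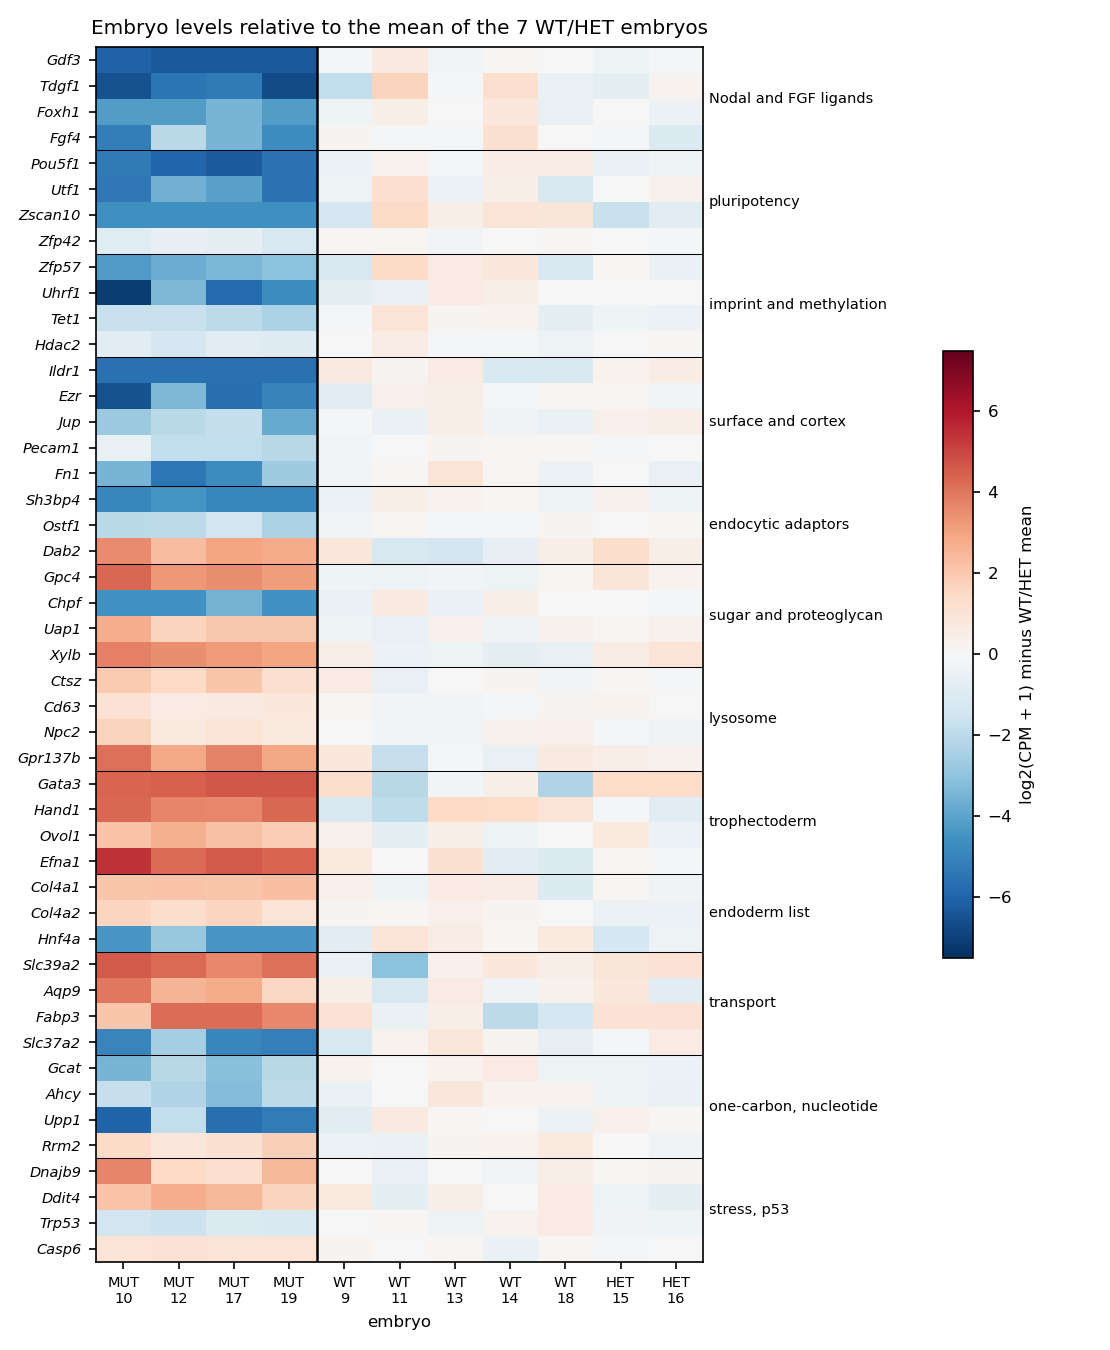
Log2(CPM + 1) of 47 genes (lines, grouped by function at the right) in 11 embryos (columns), minus the mean of the 7 WT/HET embryos, from blue (lower) to red (higher). The 4 MUT columns have 1 sign for each gene shown, and MUT embryo 10 is paler than the other MUT embryos for Pecam1 and darker for Dnajb9.

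The metabolic lists had calls in both directions. Of 36 folate, glycine and methionine genes, 2 were called higher and 3 lower (median 0.10, 13.9% called against 6.18% of all genes). Gcat, which with Tdh splits threonine into glycine and acetyl-CoA, fell by 2.82 ± 0.42 on the log2 scale (adjusted p = 0.00329), from 25.6 to 54.7 CPM in controls to 2.24, 7.62, 3.01 and 7.52 CPM in MUT embryos. Tdh was not called (79.0 CPM in MUT and 102 CPM in controls). Ahcy, which clears S-adenosylhomocysteine after methylation reactions, fell by 2.44 ± 0.41 (adjusted p = 0.00549). No MUT embryo overlapped the controls for Gcat or Ahcy.

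Of 35 nucleotide synthesis and salvage genes tested, 5 were called higher and 3 lower (median -0.16, 22.9% called against 6.18% of all genes). The count of increases was 3 without MUT embryo 10, WT embryos 9, 13 or 14 or HET embryos 15 or 16, and that of decreases 1 without MUT embryo 17. Rrm2, the regulated subunit of ribonucleotide reductase, was at 1141, 768, 947 and 1476 CPM in MUT embryos against 299 to 700 CPM in controls (log2 fold change 1.28 ± 0.24, adjusted p = 0.00865). Dut, which keeps dUTP out of DNA, fell by 1.07 ± 0.17. Upp1, a uridine phosphorylase, was at 3.09, 71.6, 4.32 and 6.04 CPM in MUT embryos and at 151 to 425 CPM in controls (log2 fold change -3.69 ± 0.83, adjusted p = 0.0216), and its adjusted p was 0.059 against WT embryos alone and 0.050 without MUT embryo 17. In the glycolysis and pentose phosphate list 3 of 34 were called higher and 1 lower, while the median of the list was -0.59. The share called was 11.8%, against 6.18% of all genes, and 1 was called higher without MUT embryo 10, 12 or 17. Hk1, a hexokinase, rose by 2.08 ± 0.44 (adjusted p = 0.0159, or 0.065 without MUT embryo 10), and the pyruvate kinase gene Pkm was not called, with 56.4 CPM in MUT embryo 10 and 275 to 347 CPM in the other 3.

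Lipid and transport genes included some of the larger increases. Fabp3 (ENSMUSG00000028773, chromosome 4, 130308595 to 130315463), a fatty acid-binding protein and a TE marker, was at 168, 717, 718 and 482 CPM in MUT embryos against 9.20 to 83.9 CPM in controls (log2 fold change 3.35 ± 0.58, adjusted p = 0.00627). Of 44 sterol and fatty acid genes, 2 were called higher and 3 lower (median -0.30, 11.4% called against 6.18% of all genes). Without MUT embryo 17 none was called lower. The fatty acid synthase gene Fasn was not called (18.5 CPM in MUT and 36.5 CPM in controls). Aqp9, a channel for water and glycerol, was at 157, 59.1, 70.7 and 29.5 CPM in MUT embryos against 3.501 to 17.3 CPM in controls (log2 fold change 2.91 ± 0.48, adjusted p = 0.00519). Atp1b1, a subunit of the sodium pump that drives fluid into the blastocyst cavity, fell by 2.42 ± 0.51 (adjusted p = 0.0148). Of 31 amino acid and ion transporters and channels, 2 were called higher and 3 lower (median 0.41, 16.1% called against 6.18% of all genes). The count of decreases was 1 without WT embryo 11, WT embryo 14, HET embryo 15 or HET embryo 16. Aqp3 was not called, with 13.3 to 190 CPM across MUT embryos. Slc39a2 (ENSMUSG00000072572, chromosome 14, 51892889 to 51896745), a zinc importer, rose to 220, 171, 109 and 160 CPM in MUT embryos from 0.0715 to 18.2 CPM in controls (log2 fold change 3.93 ± 0.67, adjusted p = 0.00563). Slc37a2, a sugar phosphate exchanger of the endoplasmic reticulum, fell by 4.72 ± 1.03 on the log2 scale (adjusted p = 0.0175), a call lost against WT embryos alone (adjusted p = 0.054).

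Of 48 genes of stress, heat shock and the unfolded protein response, 7 were called higher and 1 lower (median 0.32). The share called was 16.7%, against 6.18% of all genes. With HET embryos left out 2 were called higher, and 3 with read pairs that fell outside genes added to the library size. Dnajb9, a co-chaperone of the endoplasmic reticulum, was at 1362, 304, 256 and 626 CPM in MUT embryos against 76.0 to 154 CPM in controls (log2 fold change 2.52 ± 0.37, adjusted p = 0.00321). Its partner Hspa5 (BiP) rose by 0.88 ± 0.18 (adjusted p = 0.0146), a call lost against WT embryos alone (0.059) and with read pairs that fell outside genes added to the library size (0.078). Ddit4, an inhibitor of mTORC1 induced by stress, rose by 2.63 ± 0.54, and Hsph1, a cytosolic heat shock protein, fell by 1.36 ± 0.28. Atf4, a transcription factor of the integrated stress response, was not called (156 CPM in MUT and 132 CPM in controls).

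Of 41 p53 target and apoptosis genes, 5 were called higher and 2 lower (median 0.17, 17.1% called against 6.18% of all genes). The count of increases was 2 or 3 without any 1 of the MUT embryos, WT embryo 14 or HET embryo 16. Trp53 itself fell from 116 to 225 CPM in controls to 55.1, 48.0, 68.3 and 66.5 CPM in MUT embryos (log2 fold change -1.36 ± 0.22, adjusted p = 0.00434). Casp6, an executioner caspase, lay within 277 to 285 CPM in all 4 MUT embryos and at 95.7 to 159 CPM in controls (log2 fold change 1.03 ± 0.14, adjusted p = 0.00221). Btg1, an antiproliferative gene that also promotes mRNA decay, rose by 2.27 ± 0.31. Of the p53 targets Bax (98.5 CPM in MUT and 95.1 CPM in controls) and Mdm2 (57.7 and 46.3 CPM), neither was called. In the cell cycle list 2 of 47 tested genes were called higher and 2 lower (median -0.03), a share of 8.51% against 6.18% of all genes. Cenpa, the histone of centromeres, rose by 1.37 ± 0.19, and Mcm6, a helicase subunit of replication origins, fell by 0.96 ± 0.19, whereas Pcna (216 CPM in MUT and 220 CPM in controls) and Ccnb1 (389 and 421 CPM) were not called.

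Of 40 RNA-binding and mRNA decay genes tested, 2 were called higher and 1 lower (median -0.04), a share of 7.5% against 6.18% of all genes. The paralogues Rbpms and Rbpms2, RNA-binding proteins of a shared family, went opposite ways, with log2 fold changes of 1.08 ± 0.20 (adjusted p = 0.00933) and -0.69 ± 0.13 (adjusted p = 0.00877). Of 20 maternal and cleavage-stage genes tested, 6 were called higher and 1 lower (median 0.84, 35% called against 6.18% of all genes). The count of increases was 1 without MUT embryo 10 (median 0.47), 3 without WT embryo 13, 2 without WT embryo 14 and 2 with HET embryos left out. Trim43b, a gene of the cleavage stages, was at 3033, 841, 1044 and 1242 CPM in MUT embryos against 96.3 to 407 CPM in controls (log2 fold change 3.01 ± 0.43, adjusted p = 0.00255). Trim43b has near-identical copies, so its counts are uncertain, and read pairs aligned to more than 1 place, which are in no count, made up 44.5% in MUT embryo 10, 38.1 to 43.7% in the other MUT embryos and 37.9 to 40.4% in controls. Khdc3, a maternal gene of the subcortical complex of the egg and early embryo, fell by 1.41 ± 0.24.

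Other changes of large size had no list. Tmem56 rose to 221, 29.8, 52.6 and 34.4 CPM in MUT embryos from 0 to 9.68 CPM in controls (log2 fold change 4.68 ± 0.91, adjusted p = 0.0103). The forkhead repressor Foxn3 rose by 2.80 ± 0.47 and the X-linked TNF-family ligand Eda by 2.68 ± 0.48. Among decreases were Amacr, a racemase of branched-chain fatty acid oxidation (-4.23 ± 0.74), Psrc1, a microtubule-associated protein (-3.33 ± 0.52), and the traffic GTPase Rab31 (-2.99 ± 0.63). The class I histocompatibility genes H2-K1 and H2-D1, which present peptides to T cells, fell by 2.90 ± 0.53 and 2.71 ± 0.45 on the log2 scale. H2-D1 was at 9.81, 58.0, 40.7 and 29.1 CPM in MUT embryos and at 103 to 318 CPM in controls. H2-K1 and H2-D1 resemble each other, so the split of reads between them is uncertain.

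**Figure D5:**
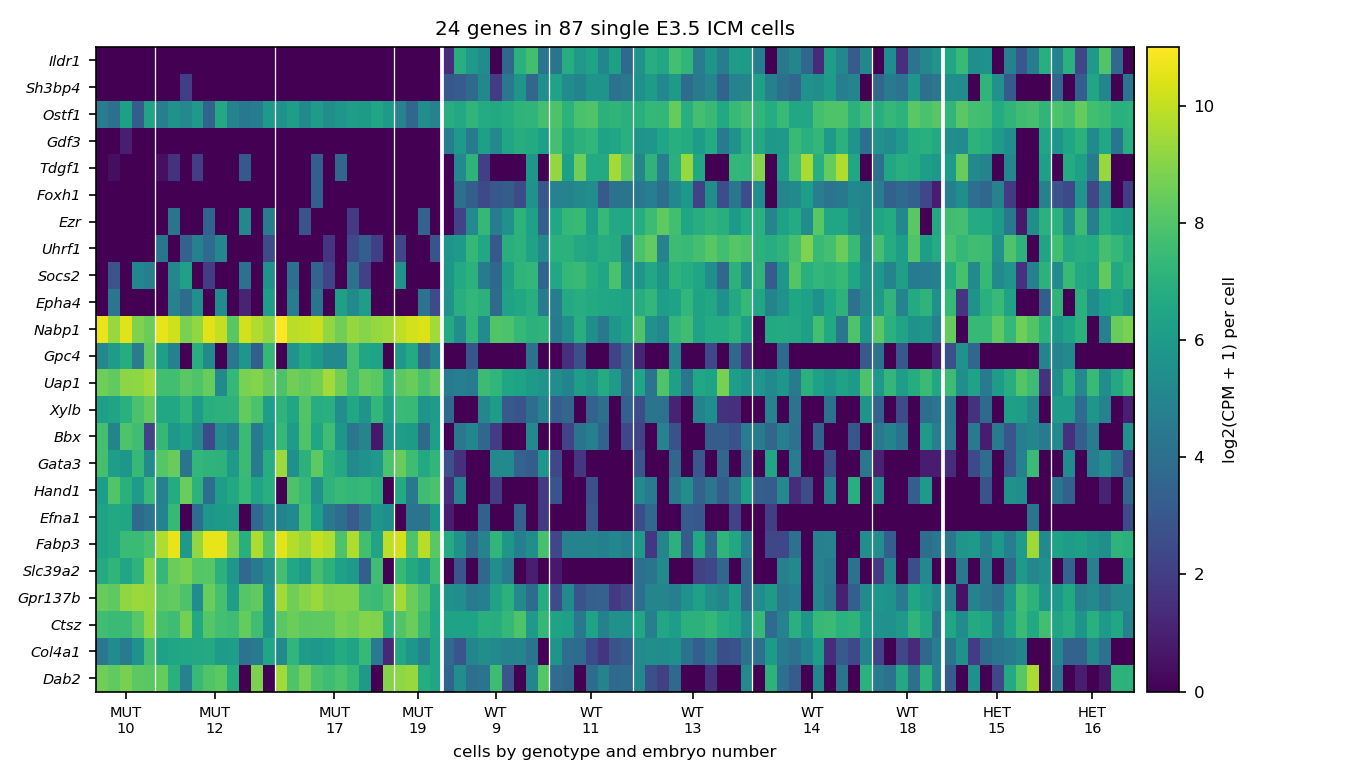
Log2(CPM + 1) per cell (colour, from dark at 0 to yellow) of 24 genes in 87 cells, ordered by genotype and embryo, with white lines between embryos. Ildr1 and Sh3bp4 are dark in all but 1 of the MUT squares, and Nabp1 and Uap1 are bright in every MUT embryo.

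Across single cells, some decreases and some increases came with a change of detection, and others did not. Detection depends on level, so a change of level in all cells can shift it, and the 2 were not told apart. Control medians were 3.89 CPM for Gpc4 and 8.83 CPM for Xylb, whose detection shifted, and 171 CPM for Ostf1 and 93.6 CPM for Uap1, whose detection did not. Of the genes given with the comparison, Ildr1, Gdf3 and Sh3bp4 had counts in 0, 1 and 1 of 29 MUT cells, a near loss of detection, whereas Ostf1 was detected in 29 of 29 and fell in level. Among increases, Gpc4 went from 37.9% of control cells (95% exact binomial interval 25.5 to 51.6%) to 86.2% of MUT cells (68.3 to 96.1%), and Xylb from 69.0% (55.5 to 80.5%) to 29 of 29 cells. Uap1 was detected in all 87 cells, so its increase was of level. Intervals cover counting error only and treat cells as independent, which those of the same embryo are not. The median depth of a cell was 1379621 counts in the median MUT embryo and 1323033 in the median control.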

How the data were processed

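Single ICM cells of E3.5 blastocysts were measured by Smart-seq2. The authors aligned read pairs to GRCm38 with STAR, counted them per Ensembl gene with htseq-count, after cells of inadequate quality had been removed, and deposited raw counts without normalization. Symbols and coordinates came from GENCODE vM21 (49412 of 49671 genes had a record), promoters from RefSeq. The embryo of each cell was read from the study's supplementary cell list and genotype from the labels. Counts were summed per embryo, filtered with filterByExpr and tested with edgeR 4.0.16 (quasi-likelihood F test, R 4.3.3), MUT against WT/HET, after TMM scaling, with Benjamini-Hochberg adjustment over all 12075 genes. SE is the size of the log2 fold change divided by the root of F. Counting was without strand, so overlapping and antisense genes can share reads. Nothing says that embryos came from separate litters.

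Genes named are the 13 given with the comparison, genes among the 25 largest changes per direction at 20 CPM or more without overlap, and up to 4 called and 3 uncalled members per list; calls that held under the alternatives were preferred, which makes the named genes steadier than called genes at large. The 13 genes, the members and the lists were chosen with earlier results of these data known, and lists share some genes. Lack of overlap was a condition for the 25 largest changes, so it gives them no separate support. Alternatives were each embryo left out, HET embryos left out, 3 genotypes fitted apart, 7 shallow cells (under 0.5 of the median counts) left out, other filters and scalings, DESeq2 1.42.0 and limma 3.58.1 on cells weighted equally.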

Additional observations from a re-analysis of the deposited data

Results flagged for a closer look

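In 26 of 238 groups tested (the 4 MUT or the 7 WT/HET embryos of a named gene) the highest or lowest embryo stood apart from the rest by Dixon's criterion. Chance gives about 1 in 20 only for normally distributed values without ties, and untransformed CPM were used here, so 26 is not set against that rate. The rate also does not hold for the 3 groups at 0 in every embryo, which cannot give an outlier, nor for the 6 above 0 in 1 embryo only, where the criterion is met by construction. Of the 26, 16 were in MUT embryos, 7 of them in embryo 12 and 5 in embryo 10, and 10 were in controls, 4 of them in WT embryo 11.

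Of the genes near 0 in MUT, those 6 were Gdf3 with counts in embryo 10 (0.140 CPM), Sh3bp4 (0.353 CPM), Hnf4a (1.91 CPM) and Sfrp1 (2.47 CPM) in embryo 12, and Foxh1 (0.652 CPM) and Chpf (1.06 CPM) in embryo 17. Slc37a2 was at 4.94 CPM in embryo 12 and lower in the others. MUT embryo 12 was also the highest for Upp1 (71.6 CPM), Dut (104 CPM) and Btg1 (311 CPM).

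MUT embryo 10 was the highest of the MUT embryos for Tmem56 (221 CPM), Fbxo15 (5100 CPM), Pecam1 (79.6 CPM) and Actn4 (469 CPM), and embryo 19 for Cltc (676 CPM) and Pcna (269 CPM). Among controls, WT embryo 11 stood high for Gdf3 (123 CPM), Tet1 (391 CPM), Hdac2 (787 CPM) and Sox17 (7.503 CPM), WT 13 for Fn1 (81.5 CPM), WT 14 for Fgf4 (80.0 CPM), HET 15 for Gpc4 (9.33 CPM), HET 16 for Foxn3 (20.8 CPM) and WT 18 for Trim43b (407 CPM), while WT 18 was the lowest for Rbpms2 (174 CPM).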

How the results depend on the processing

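Against the 746 calls (386 higher, 360 lower), 435 (225 and 210) were made with WT embryos as the only controls, 209 higher with read pairs that fell outside genes added to the library size, 1817 (786 and 1031) with DESeq2, and 1353 (928 of them lower) with cells weighted equally. Leaving out 1 embryo gave 482 (without WT 14) to 882 (without MUT 12) calls, 241 (without MUT 10) to 463 (without MUT 12) higher and 228 (without WT 14) to 419 (without MUT 12) lower. No gene called in both was called in the opposite direction under any of these. At 5 or more counts, Pou5f1 was detected in 10 of 29 MUT cells (21 at 1 or more) and Gdf3 in 0 (1 at 1 or more). The 13 genes given with the comparison kept their call and direction in all 20 alternatives, with a highest adjusted p of 0.0255 for Hand1 against WT embryos alone. These 13 were picked with earlier results of these data known, and the alternatives reuse embryos of the same 11. Their steadiness is thus not independent support. Of 84 called genes named, 82 had a value in all 20, of which 75 kept their call in all. Arid3a and Ddit4 were not tested under the filter at 10 CPM. Of 30 lists, the sign of the median changed in at least 1 alternative for 12 (HMG-box, Notch and Hippo, RNA-binding, actin cortex, cell cycle, ephrins, nucleotide, folate and methionine, p53, PrE, stress and TE factors), and the majority direction of the calls turned for 10 (RNA-binding, actin cortex, transporters, glycolysis, hexosamine, nucleotide, folate and methionine, proteoglycans, sterol and tight junction). With 4 MUT embryos of 4 to 10 cells, genes of a few CPM are poorly measured. No paired analysis was possible because the label numbers name cells within a genotype and embryos of different genotypes share none.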
